A study of Drosophila melanogaster with 15 samples.

Results

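The phototransduction genes considered here are 10 genes of the fly eye, namely the rhodopsins ninaE, Rh3 and Rh4, the phospholipase C norpA, the channels trp and trpl, the scaffold inaD, the myosin ninaC and the arrestins Arr1 and Arr2. They were found by gene symbol or synonym among 18769 probe sets, groups of short oligonucleotides that each read 1 transcript or a few related transcripts. A probe set was named for 6 of the 10 genes, 1 each, among 12013 named genes in all. ninaE, Rh3, Rh4 and norpA had no probe set named for them alone in the platform annotation or the study's list of changed probe sets. They were not analysed here. The gene descriptions given with the study's Signal values were not searched for them, so the array may still hold probe sets of these genes. The 6 probe sets are 1622920_at for trp, 1633649_s_at for trpl, 1638319_at for inaD, 1634054_at for ninaC, 1636163_at for Arr1 and 1632111_at for Arr2. The suffix of the trpl probe set marks probes that can match more than 1 transcript. ninaC was named only through the study's own list of changed probe sets, which was chosen on these same arrays, so a call for ninaC is not independent evidence.

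The RNA came from whole flies of Drosophila melanogaster, pools of 30 males of the isogenic Canton-S B strain aged 3 to 5 days, with 1 pool per array. There were 5 control pools that met no ethanol, 5 pools of flies that had passed once through the inebriometer and were taken at 3 to 5 minutes (1st exposure), and 5 pools of flies that rested for 2 h on food, passed again and were taken at 7 to 10 minutes (2nd exposure). The inebriometer is a column of ethanol vapour in which flies fall from one baffle to the next as they lose posture, so the exposed pools hold only flies with a set elution time. The 2nd exposure pools were also frozen at least 2 h after the controls of their replicate, and the number of exposures, the time of day and the choice by elution time cannot be told apart. All treatments share the strain, and the methods, not the sample labels, give the sex.

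In the photoreceptor cells of the fly, light turns rhodopsin into its active form, which acts through a Gq protein on the phospholipase C encoded by norpA. The breakdown of the membrane lipid phosphatidylinositol bisphosphate then leads to the opening of the trp and trpl cation channels, and calcium that enters sets off both amplification and shut-off. The scaffold inaD holds trp, the phospholipase C and an eye protein kinase C in one complex, ninaC is a myosin with a kinase domain that binds calmodulin, and the arrestins bind active rhodopsin and end its signal.

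The values are Signal, the linear intensity that the authors' software computed from the probes of a set and scaled to the same trimmed mean of 500 on every array. The median Signal of an array was 134 to 138 in the control group, 129 to 131 in the 1st exposure group and 137 to 140.3 in the 2nd exposure group. The precision is set by the small number of arrays. The 13809 probe sets whose mean Signal was 20 or more were compared on log2(Signal) with limma, and a difference was called where the p-value, adjusted over all 13809 by the Benjamini-Hochberg method, was under 0.05. All 6 members were among them.

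A pair of arrays stood apart. On control replicate 5 the 18 spiked hybridization controls had a median log2 deviation of 0.55 from their mean over all arrays, against -0.39 to 0.25 on the other 14 arrays. The yolk protein genes Yp1, Yp2 and Yp3 are expressed in females. On 2nd exposure replicate 5 their summed Signal was 5851, against 99.5 to 315 on the other 14 arrays. The methods give males, and whether that pool also held females was not tested. Yp1 alone had a Signal of 2521 there. The log2 ratio of the 3′ to the 5′ Actin control probe sets, a measure of RNA integrity, was 1.0 to 1.44 in the control group, 0.76 to 1.08 in the 1st exposure group and 0.44 to 0.87 in the 2nd exposure group, and its part in the results below was not tested. The main component of the residuals, 13.5% of their variance, also split the exposed pools, with replicates 1 and 3 of the 1st exposure on the same side as replicates 1, 2 and 3 of the 2nd. For the members, log2 fold changes against control are given with and without control replicate 5. For trpl, ninaC and laza, adjusted p-values without 2nd exposure replicate 5 are also given.

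trpl, a cation channel that opens beside trp and leaves the light-sensing membrane during long illumination in flies, had its highest mean after the 2nd exposure. Its Signal on replicates 1 to 5 was 2724, 2589.6, 2729, 3000.3 and 3906 in the control group, 3005, 2658, 3204, 2597 and 2801 in the 1st exposure group, and 4041, 3779, 3410.2, 3575 and 3811 in the 2nd exposure group. Every 2nd exposure array lay above every 1st exposure array and above control replicates 1 to 4, while control replicate 5 lay within the range of the 2nd exposure group. The means were 2989.7 ± 533 in the control group, 2853 ± 251 in the 1st exposure group and 3723 ± 241 in the 2nd exposure group (SD, n = 5 each). The log2 fold change of trpl was 0.33 (SE 0.10) for the 2nd exposure against control, with a limma adjusted p of 0.101, and 0.39 (SE 0.10) for the 2nd against the 1st exposure, with an adjusted p of 0.0813. Neither passed the test. Without control replicate 5 both did, at 0.43 with an adjusted p of 0.00821 against control and at 0.39 with an adjusted p of 0.017 against the 1st exposure. Of the 15 fits without 1 array, this was the only one that called trpl. Without 2nd exposure replicate 5 the adjusted p-values were 0.193 and 0.157. After the 1st exposure the fold change was -0.06 (SE 0.10, adjusted p = 0.917), and it was 0.05 without control replicate 5.

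trp, the founding member of the TRP channel family and the main light-activated calcium channel, was spread more widely than trpl. Its Signal was 2013, 1728, 1941, 1782 and 3225 in the control group, 1804, 1550.1, 1982, 1574 and 1667 in the 1st exposure group, and 2409, 2098, 1751, 1823 and 1686 in the 2nd exposure group. The ranges of the 3 treatments overlapped, and control replicate 5 was the highest of the 15 arrays. Means were 2138 ± 619 in the control group, 1715 ± 179 in the 1st exposure group and 1953 ± 299 in the 2nd exposure group (SD, n = 5 each). By limma the log2 fold change was -0.28 (SE 0.16, adjusted p = 0.56) for the 1st exposure against control, -0.10 (adjusted p = 0.807) for the 2nd exposure against control and 0.18 (adjusted p = 0.629) for the 2nd against the 1st. The interval of the fold change of the 2nd exposure against control ran over -0.44 to 0.23 at 95% confidence. Without control replicate 5 the value was 0.06, and that of the 1st exposure against control was -0.12.

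**Figure D1:**
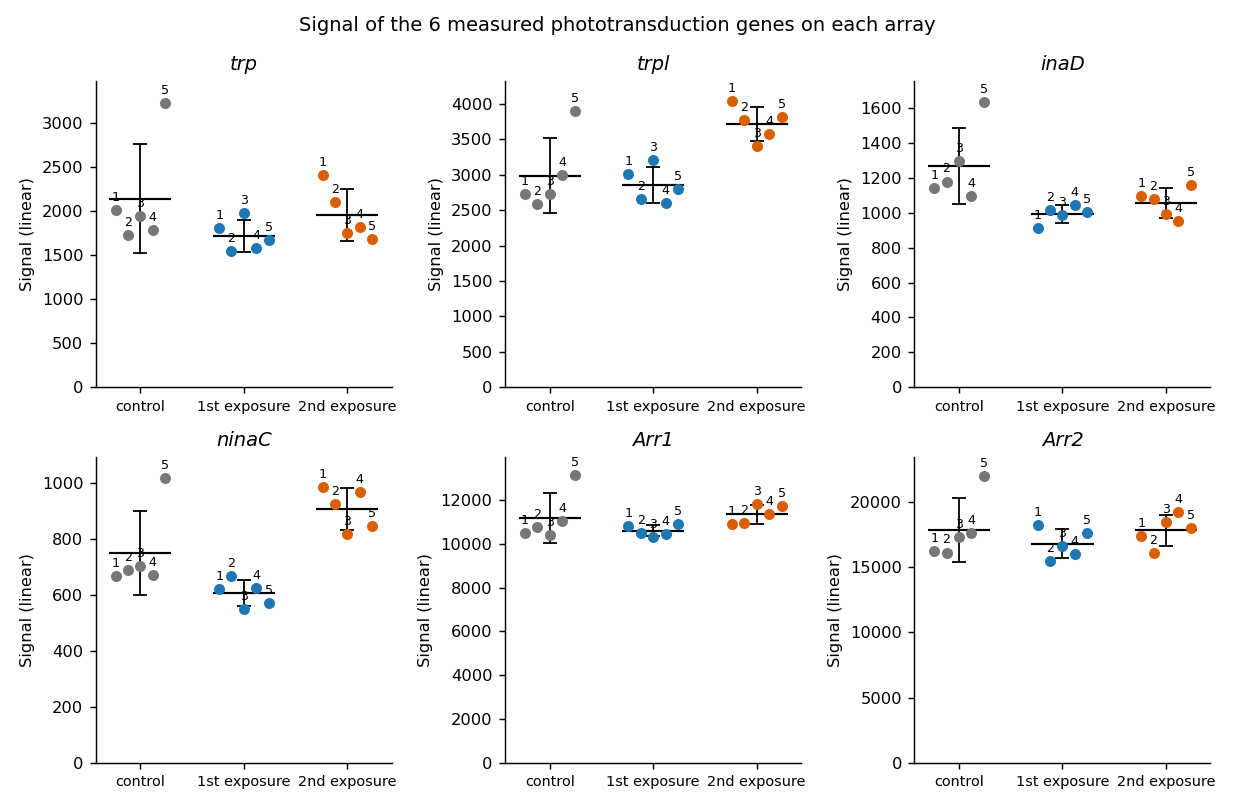
Signal (linear scale, y axis starting at 0) of trp, trpl, inaD, ninaC, Arr1 and Arr2 on each array of the control, 1st exposure and 2nd exposure groups. Points are arrays with their replicate number, horizontal lines are means and bars are SD (n = 5). Control replicate 5 is the highest control point in all 6 panels, and the ninaC and trpl points of the 2nd exposure group lie above those of the 1st exposure group.

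ninaC, the myosin III of the photoreceptor, gave the only call among the members, with 1.5-fold higher Signal after the 2nd exposure than after the 1st. Its Signal was 668, 689.5, 704, 673 and 1019.8 in the control group, 621, 669.5, 551, 625 and 572 in the 1st exposure group, and 987, 926, 818, 969 and 847 in the 2nd exposure group. The exposed groups did not overlap. Control replicates 1 to 4 lay between 668 and 704, below every 2nd exposure array and above every 1st exposure array except replicate 2, and control replicate 5 was the highest of the 15 arrays. The means were 751 ± 151 in the control group, 608 ± 46.7 in the 1st exposure group and 909 ± 74.4 in the 2nd exposure group (SD, n = 5 each).

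For ninaC the log2 fold change of the 2nd against the 1st exposure was 0.58 (SE 0.11), with a limma adjusted p of 0.0193. The call held with any 1 array left out, at adjusted p-values of 0.000886 to 0.0475, and stood at 0.0344 without 2nd exposure replicate 5. It was lost without 2nd exposure replicates 4 and 5 together, where the fold change was 0.58 with an adjusted p of 0.0846, and with the replicate number as a block, where it was 0.58 (SE 0.12) with an adjusted p of 0.0525. Against control the fold change was -0.29 (SE 0.11, adjusted p = 0.369) after the 1st exposure and 0.29 (SE 0.11, adjusted p = 0.188) after the 2nd. Without control replicate 5 the 2nd exposure passed the test against control, at 0.41 with an adjusted p of 0.00908, while the 1st exposure stood at -0.17 with an adjusted p of 0.516. Of the 15 fits without 1 array, this was the only one that called ninaC against control. In whole flies, fewer cells of a type and less RNA per cell cannot be told apart, and this holds for every gene described here.

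inaD, the scaffold with several PDZ domains that gathers the signalling complex, had lower means after either exposure. Its Signal was 1142.5, 1180.4, 1298, 1096 and 1637 in the control group, 912, 1016, 989, 1046 and 1005 in the 1st exposure group, and 1097, 1082, 994, 951 and 1160.5 in the 2nd exposure group. No 1st exposure array reached the lowest control array, while the 2nd exposure group overlapped the control group. The log2 fold change was -0.34 (SE 0.10) for the 1st exposure against control, with an unadjusted p of 0.00388 and a limma adjusted p of 0.212. For the 2nd exposure against control it was -0.25 (SE 0.10, adjusted p = 0.201). Between the exposures it was 0.09 (adjusted p = 0.721). Without control replicate 5 the values against control were -0.25 (adjusted p = 0.283) and -0.16 (adjusted p = 0.312), and no setting tried for inaD brought a call.

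Arr1 and Arr2, the arrestins that quench rhodopsin, had log2 fold changes of no more than 0.10 in either direction in the 3 comparisons with all arrays. For Arr1 the Signal was 10518, 10759.5, 10403, 11050.0 and 13162 in the control group, 10809, 10511, 10333.5, 10474 and 10932 in the 1st exposure group, and 10888, 10964, 11820.5, 11346 and 11733 in the 2nd exposure group. Apart from control replicate 5, the 14 arrays lay between 10333.5 and 11820.5. For Arr2 it was 16220.5, 16125, 17293, 17594 and 22023 in the control group, 18203, 15480.3, 16605.5, 16039.5 and 17650.4 in the 1st exposure group, and 17423, 16071, 18432, 19244 and 18026 in the 2nd exposure group. The 3 treatments overlapped for both genes. For the 2nd exposure against control, the log2 fold change was 0.03 for Arr1 (95% confidence interval -0.11 to 0.16, limma adjusted p = 0.885) and 0.01 for Arr2 (-0.18 to 0.19, adjusted p = 0.983). The corresponding values after the 1st exposure were -0.07 (-0.21 to 0.07, adjusted p = 0.775) and -0.08 (-0.27 to 0.10, adjusted p = 0.822). Between the exposures they were 0.10 (adjusted p = 0.502) and 0.09 (adjusted p = 0.676). Without control replicate 5, Arr1 and Arr2 stood at 0.09 and 0.08 after the 2nd exposure against control. After the 1st exposure they stood at -0.0095 and -0.0026 without that array.

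Over the members, the 1st exposure against control gave 0 calls of 6 by limma, where 0.362% of the 13809 probe sets were called, and 2 members (inaD and ninaC) had an unadjusted p under 0.05, as did 10.5% of all tested probe sets. All 6 fold changes were below 0 as deposited, and 5 of 6 with the medians of the arrays equalised or without control replicate 5. Their median was -0.18, or -0.07 without control replicate 5, against -0.02 over all tested probe sets in either case. The groups did not overlap for 1 member (inaD), lower after exposure, where 1.6% of all tested probe sets were lower without overlap.

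The 2nd exposure against control gave 0 calls of 6, where 3.63% of all tested probe sets were called, and 3 members (trpl, inaD and ninaC) had an unadjusted p under 0.05, as did 16.4% of all tested probe sets. Of the fold changes, 4 were above 0 and 2 below as deposited, and 2 above and 4 below with array medians equalised. Without control replicate 5 the test called 2 members, trpl and ninaC, where 3.58% of all tested probe sets were called. The median of the members was 0.02 with all arrays and 0.09 without control replicate 5.

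For the 2nd against the 1st exposure, 1 of 6 members was called, ninaC, where 1.76% of all tested probe sets were called. ninaC was named only from the study's list of changed probe sets, chosen on these same arrays. The shares over all tested probe sets are therefore no fair background for ninaC, here or in the comparisons above. An unadjusted p under 0.05 was found for 2 members, ninaC and trpl, and for 15.6% of all tested probe sets. The groups did not overlap for the same 2 members, higher after the 2nd exposure, where 3.39% of all tested probe sets were higher without overlap. All 6 fold changes were above 0 as deposited or after quantile normalization, but only 3 of 6 once array medians were equalised, where inaD, Arr1 and Arr2 stood just below 0. The 243 calls over all probe sets were 154 higher and 89 lower as deposited, and 86 higher and 333 lower with equalised medians, a setting that moved the median of all tested probe sets between these groups to -0.07, against 0.03 as deposited. The ninaC call held in that setting. The comparisons share arrays, and the exposures against control share all 5 control arrays.

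**Figure D2:**
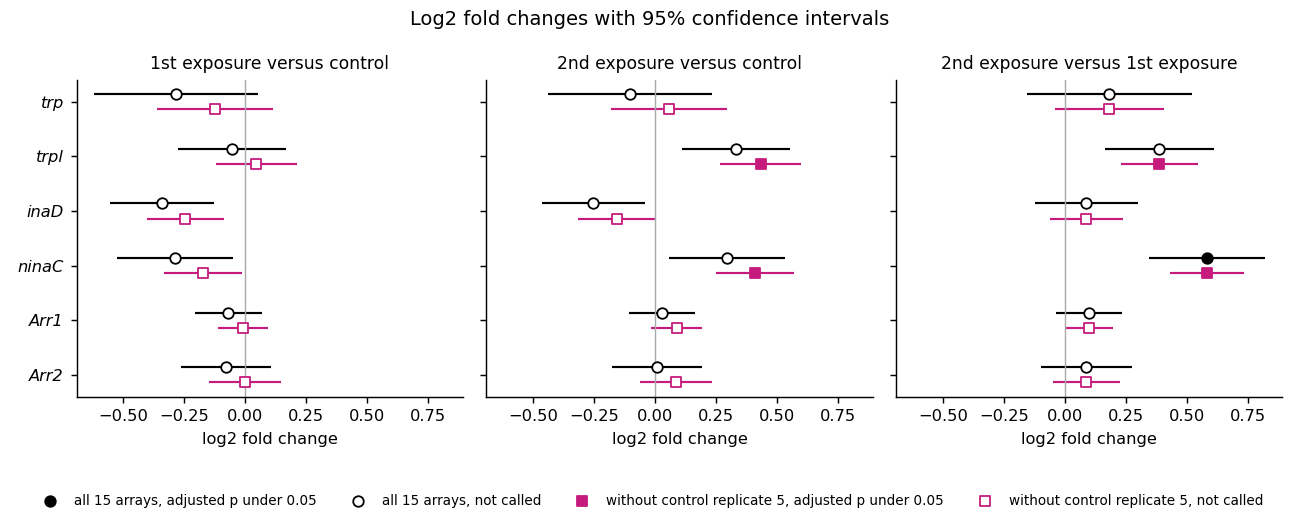
Log2 fold changes (x axis) of the 6 members in each comparison, with 95% confidence intervals as lines, from all 15 arrays (black circles) and without control replicate 5 (magenta squares); filled symbols have a limma adjusted p under 0.05. With all arrays only ninaC between the exposures is filled, and without control replicate 5 trpl and ninaC are filled in both comparisons of the 2nd exposure; with equalised array medians the inaD, Arr1 and Arr2 values of the right panel lie just below 0.

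Control replicate 5 was the highest of the 5 control arrays in all 6 members, where this was so for 25.0% of all tested probe sets. It exceeded the mean of the other 4 controls by 0.79 on the log2 scale in trp, 0.58 in ninaC, 0.50 in trpl, 0.48 in inaD, 0.39 in Arr2 and 0.30 in Arr1. The median excess was 0.49 in the members, 0.26 in 44 other eye genes, 0.32 in 11 genes of neurons, 0.03 in 5 genes of glia and 0.02 over all tested probe sets. The spread of the members within the control group followed that array. The coefficient of variation of ninaC Signal was 20.1% over the 5 controls and 2.38% over controls 1 to 4, and that of trp was 28.9% and 7.15%. In the exposed groups the members varied by 2.35% to 10.5% after the 1st exposure and by 3.76% to 15.3% after the 2nd, against medians of 8.56% and 8.85% over probe sets of 500 or more in mean Signal. Genes of other tissues were also high on control replicate 5, with a median excess of 0.42 in 6 genes of the male accessory gland and of 0.38 in 8 antennal genes, and each of these genes had its highest control value there.

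**Figure D3:**
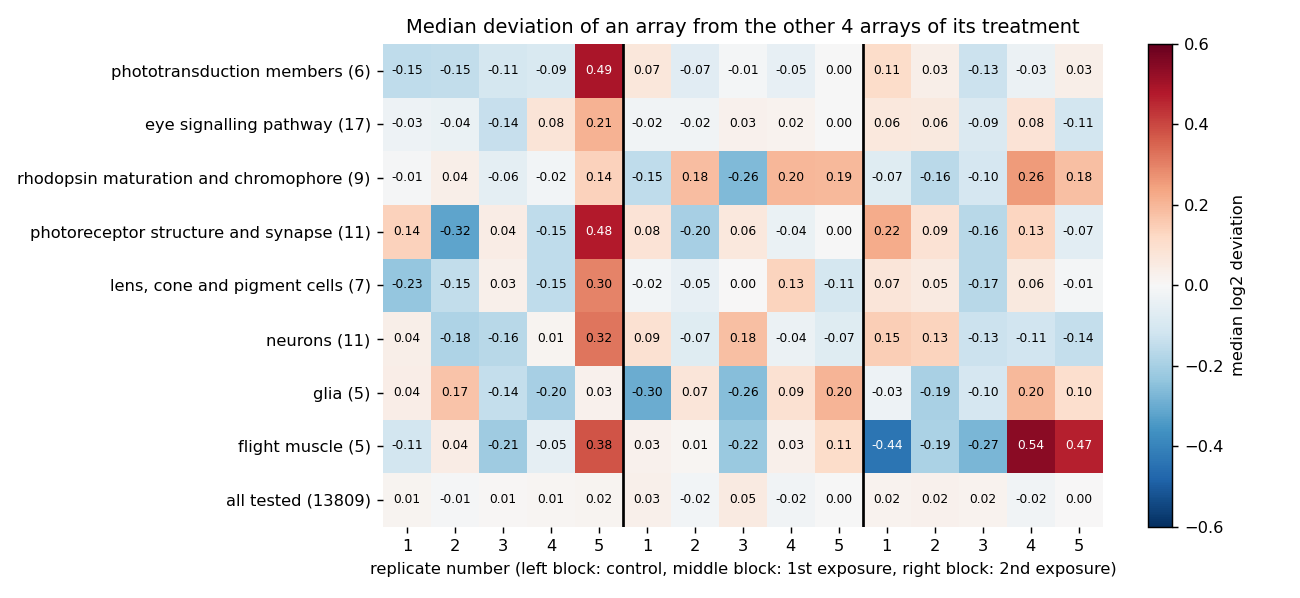
Median log2 deviation of each array from the mean of the other 4 arrays of its treatment (colour and printed values), for the 6 members, 4 lists of other eye genes, neurons, glia, flight muscle and all tested probe sets, with the number of genes in brackets. Control replicate 5 is at 0.49 for the members, 0.48 for photoreceptor structure genes and 0.02 for all tested probe sets.

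Around the members, 57 other eye genes were listed by role and 44 of them were measured, each read by its brightest probe set. None was called after the 1st exposure against control, 1 was lower and 0 were higher after the 2nd exposure against control, and 1 was higher and 1 lower for the 2nd against the 1st exposure. Their median log2 fold change was -0.10, -0.06 and 0.10 in these comparisons, beside -0.02, -0.00019 and 0.03 over all tested probe sets. Of the 44 genes 35 were below 0 after the 1st exposure as deposited, and 28 with array medians equalised. After the 2nd exposure 33 were below 0, and 22 without control replicate 5.

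In the signalling pathway around the members, 17 of 23 listed genes were measured and 1 was called. laza, a phosphatidic acid phosphatase of the photoreceptor's lipid cycle, was lower after the 2nd exposure. Its Signal was 426, 518, 456, 496 and 483 in the control group, 491, 438, 495, 406 and 439 in the 1st exposure group, and 332, 366, 367, 366.5 and 341 in the 2nd exposure group. No array of the 2nd exposure group reached the lowest array of the other treatments. The log2 fold change was -0.42 (SE 0.07, limma adjusted p = 0.00439) against control and -0.35 (SE 0.07, adjusted p = 0.0226) against the 1st exposure. On control replicate 5 laza was only 0.03 above the mean of the other controls. The call against control held in each of the 29 alternative fits, also without 2nd exposure replicate 5, at adjusted p-values of 0.00185 to 0.0453. The call against the 1st exposure was lost without 2nd exposure replicate 5, at an adjusted p of 0.0572, and also without 1st exposure replicate 1 (0.0538), 1st exposure replicate 3 (0.0523) or 2nd exposure replicate 1 (0.0574). It was also lost with the replicate number as a block (0.0674), without 2nd exposure replicates 4 and 5 (0.101) and without replicate 5 of all treatments (0.109).

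Gbeta76C, inaC and rtp, other pathway genes of high Signal, had smaller differences against control. Over the 17 measured genes the log2 fold changes of the 2nd exposure against control ran over -0.57 to 0.20, and the lowest was not called. Gbeta76C, the eye's G protein beta subunit, averaged 3875 Signal in the control group, 3400.2 in the 1st exposure group and 3689.5 in the 2nd exposure group, and its log2 fold changes against control were -0.18 (limma adjusted p = 0.59) and -0.06 (adjusted p = 0.831). inaC, the protein kinase C held by inaD, averaged 1147, 943 and 1033 in the same order, with fold changes of -0.28 (adjusted p = 0.335) and -0.14 (adjusted p = 0.534). rtp, a partner of ninaC, stood at -0.19 (adjusted p = 0.49) and -0.18 (adjusted p = 0.371) by its brighter probe set. A dimmer probe set of Galphaq, 1624798_s_at, stood at 0.415 (adjusted p = 0.0595) after the 2nd exposure against control. It was called in 8 of the 29 alternatives. The brightest Galphaq probe set, like that of every measured pathway gene, stood at 0.20 or less in this comparison and was not called higher. Galphaq had no call in the main fit and is named here outside the naming rule given below.

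For the lipid enzymes rdgA and inaE, single dimmer probe sets passed the test where the brightest of the gene did not. rdgA encodes a diacylglycerol kinase, and its probe set 1641349_at averaged 224 Signal after the 2nd exposure and 147 after the 1st, a log2 fold change of 0.60 (SE 0.12, limma adjusted p = 0.02). Its brightest probe set, 1626192_at, stood at 0.44 (adjusted p = 0.148), and the remaining pair stood at -0.07 and 0.01. inaE encodes a diacylglycerol lipase, and its probe set 1627706_a_at averaged 153 Signal after the 2nd exposure and 103 in the control group, a fold change of 0.58 (SE 0.13, adjusted p = 0.0276). Its brightest probe set, 1625176_at, stood at 0.07 (adjusted p = 0.854). The probe sets of each gene disagree, and the inaE call was lost in 6 of the 15 fits without 1 array, at adjusted p-values of 0.0587 to 0.0725, which were those without control replicate 2, 3 or 4 and without 2nd exposure replicate 2, 4 or 5. The rdgA call was lost without 1st exposure replicate 4, at 0.0561. Of the 14 other alternatives, 4 ended the inaE call (adjusted p = 0.0502 to 0.182) and 2 the rdgA call (0.0539 and 0.108).

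Among genes for rhodopsin maturation and its chromophore, 9 of 11 were measured. None was called in any comparison by the limma fit described above, before the alternatives. After the 2nd exposure all 9 were below 0 against control, also after quantile normalization and with equalised medians, and 8 of 9 without control replicate 5. Their median log2 fold change was -0.14. ninaD, a scavenger receptor that takes up carotenoids for the visual pigment, had the lowest value, -0.80 (SE 0.21, limma adjusted p = 0.0554), with 246 to 434.5 Signal in the 2nd exposure group and 499 to 599 in the control group, which did not overlap. This lower value passed the test in 9 of the 29 alternatives, log2(Signal + 50) among them, at adjusted p-values of 9.36e-05 to 0.0453. Between the exposures ninaD was called in 1 alternative. For the 2nd exposure against control, 1 alternative called pinta, a retinoid-binding protein named here after its values were seen. Pdh, a retinol dehydrogenase of the pigment cells, stood at -0.02 (adjusted p = 0.962), and ninaA, the cyclophilin that helps rhodopsin fold, at -0.28 (adjusted p = 0.314).

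Photoreceptor structure and synapse genes were measured for 11 of 12 listed, and 1 was called. eys, a protein that fills the space between the light-sensing membranes, averaged 264 Signal after the 2nd exposure and 175 after the 1st, a log2 fold change of 0.59 (SE 0.13, limma adjusted p = 0.0308). The exposed groups did not overlap for eys, with 229 to 314 after the 2nd exposure and 145 to 189 after the 1st. The call was lost in 6 of the 15 fits without 1 array, at adjusted p-values of 0.0507 to 0.0807, namely those without 1st exposure replicate 1, 2 or 4 or 2nd exposure replicate 1, 2 or 5. It was also lost in 6 of the 14 other alternatives, which were quantile normalization (0.0515), the linear Signal (0.0513), no filter on low Signal (0.0564), the replicate number as a block (0.0658), the closest arrays averaged (0.087) and 2nd exposure replicates 4 and 5 left out (0.0589). chp, or chaoptin, which holds the photoreceptor membranes together, stood at -0.17 (adjusted p = 0.753) after the 1st and -0.10 (adjusted p = 0.791) after the 2nd exposure against control. Of the genes for lens, cone and pigment cells, 7 of 11 were measured and none was called. retinin, a protein of the corneal lens, averaged 6482, 4962 and 6644 Signal in the control, 1st exposure and 2nd exposure groups, with adjusted p-values of 0.57 and 0.973 for the exposures against control.

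**Figure D4:**
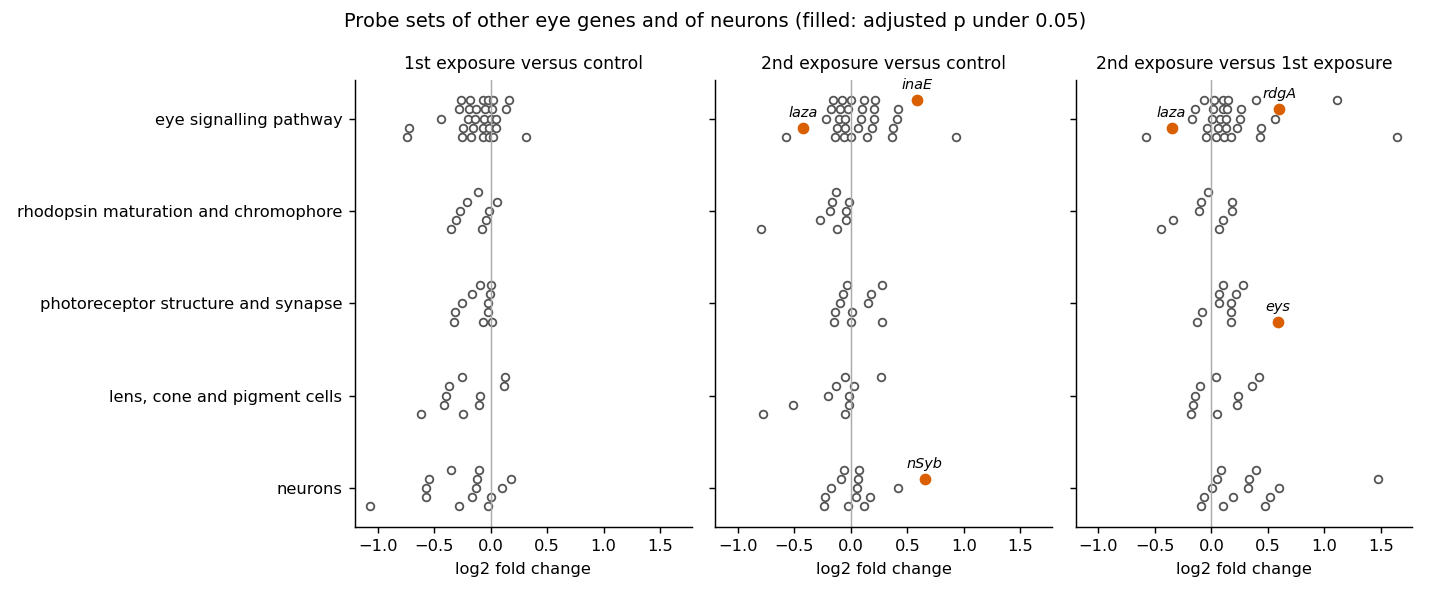
Log2 fold changes (x axis) of the tested probe sets of 4 lists of other eye genes and of neurons in each comparison; each point is a probe set, points are spread vertically for legibility only, and filled named points have a limma adjusted p under 0.05. No point is filled after the 1st exposure; laza is lower in both comparisons of the 2nd exposure, and inaE, rdgA, eys and nSyb are higher in one each.

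Markers of other cell types were read beside the eye genes. Of 8 antennal genes 7 were called lower than in the control group in each exposed group, with median log2 fold changes of -2.11 (1st exposure) and -2.27 (2nd exposure), and their summed Signal was 3111 to 5800.5 in the control group, 837 to 1467 in the 1st exposure group and 636 to 1814 in the 2nd exposure group. The summed Signal of the 17 pathway genes of the eye was 17558 to 21331 in the control group, 16280.5 to 17024 in the 1st exposure group and 16119 to 18369 in the 2nd exposure group. Of 11 measured genes of neurons 1 was called, nSyb, the synaptic vesicle protein synaptobrevin, at 0.65 (SE 0.17, limma adjusted p = 0.0451) after the 2nd exposure against control, a call that was lost in 13 of the 15 fits without 1 array, at 0.0545 to 0.105, and among these held only without control replicate 2 or 5. Of the 14 other alternatives, 7 ended the nSyb call, at 0.0521 to 0.168. The summed Signal of the neuronal genes was 7390 to 9455 in the control group, 7297 to 8492.5 in the 1st exposure group and 7757 to 9405 in the 2nd exposure group. None of 5 glial, 5 flight muscle and 6 accessory gland genes was called, and the part of any of these cell types in the members' values was not tested. The filter kept only probe sets of a mean Signal of 20 or more. No measured gene of these lists could therefore be under 20 on every array, which says nothing of its detection.

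Of 8 clock genes, which drive daily rhythms of expression, 3 (per, vri and Pdp1) were higher after the 2nd exposure against control by their brightest probe sets. A dimmer probe set of the clock gene tim, 1631468_a_at, was also higher, at 0.94 against control (limma adjusted p = 0.00252). Against the 1st exposure it stood at 1.04 (adjusted p = 0.00204), and both calls held in all 29 alternatives. The brightest probe set of tim, 1634188_a_at, was called only between the exposures, at 0.53 (adjusted p = 0.0238), and in 19 of the 29 alternatives. For per, the log2 fold change was 0.54 (limma adjusted p = 0.0207) after the 2nd exposure against control and 1.13 (adjusted p = 0.000198) for the 2nd against the 1st exposure. The call against control was lost without control replicate 4 (adjusted p = 0.0503) or 2nd exposure replicate 3 (0.0517), and in 2 of the 14 other alternatives. Over the 29 alternatives the calls against control held in 20 for vri and 16 for Pdp1. The value of per after the 1st exposure against control was -0.60 (adjusted p = 0.0493). This per call was lost in each of the 15 fits without 1 array, at 0.0501 to 0.125, and in 7 of the 14 other alternatives. The mean of ninaC was likewise below that of the control group in the 1st exposure group and above it in the 2nd exposure group, without passing the test in either, and the part of the hour of freezing in its values was not tested.

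The genes whose pattern was most like that of the members were sought by Pearson's r between the log2 Signal of each other gene and the mean of the standardised values of the 6 members, over the 15 arrays. The closest were Scp1, a sarcoplasmic calcium-binding protein (r = 0.92), dpy, a large protein of the extracellular matrix (0.89), the actin genes Act79B (0.88) and Act87E (0.88) and pkm (0.88), and no eye gene of the lists was among these 5. Control replicate 5 was their highest array, as it was that of the members' mean. Without that array, the r values were 0.81, 0.84, 0.76, 0.82 and 0.87. None of the 5 was called in any comparison, the lowest limma adjusted p being 0.0648, for pkm between the exposures. The 15 arrays share 3 treatments and the same scaling, so these values only describe likeness.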

How the data were processed

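RNA of 15 pools of whole flies was read on 15 one-colour Affymetrix arrays. The authors computed the deposited Signal intensity from perfect-match and mismatch probes with the Microarray Suite software (MAS5 in the submitters' notes) and scaled each array, and the values are linear. No background correction or normalization was added. Of 18952 probe sets, 183 controls were left out. Names came from the platform annotation (13646 probe sets with 1 gene, 402 with several, which were not named) and from the study's tables (33 more). Detection calls were not used, and a mean Signal of at least 20 replaced the removal of Absent probe sets.

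log2(Signal) of 13809 probe sets was fitted by treatment in limma 3.58.1 (R 4.3.3), its variances were moderated by eBayes, and p-values were adjusted by the Benjamini-Hochberg method with a threshold of 0.05. The methods' model has no replicate term, nor has this fit. Per the methods, the 3 treatments of a replicate were drawn from the same starting flies, but whether the deposited array numbers follow those replicates is not given in the sources used here, so the replicate block is an alternative. A gene with several probe sets was counted once, by the brightest. Every member was named, then any other listed gene with a call outside the antennal list, up to 3 of the highest Signal per list, and the 5 genes most like the members. Antennal genes with a call were counted but not named. The members and lists were chosen with earlier results of these data known. Of 29 alternatives, 1 (replicate 5 of all treatments left out) was chosen after seeing the data. The steps were tested on simulated data, with 50 probe sets changed by each amount in the 2nd exposure group. Against control, 58% of log2 changes of 0.5 were called, 84% of 1, 94% of 2 and 98% of 3. Smaller changes were not simulated, so a member that was not called may still have changed by such an amount. Tables were made with pandas 2.3.3 and numpy 2.4.6, and plots with matplotlib 3.10.9, under Python 3.11.15.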

Additional observations from a re-analysis of the deposited data

Results flagged for a closer look

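In 45 groups of 5 arrays checked, a single array lay far from the other 4 in 8, and about 1 in 20 groups would be flagged by chance. Control replicate 5 was such an array in 4 of the 6 members, with a Signal of 3225 in trp, 1019.8 in ninaC, 13162 in Arr1 and 22023 in Arr2, and its gap to the nearest control was 0.81, 0.898, 0.765 and 0.751 of the control range. These flags come from 1 array and are not independent. For per, control replicate 4 was low at 118, with a gap of 0.804 of the range. The yolk protein genes were high on 2nd exposure replicate 5, at 2521 in Yp1, 1669.5 in Yp2 and 1661 in Yp3, with gaps of 0.973, 0.945 and 0.953 of the range.

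The 2nd exposure differed from the 1st by the limma contrast between them in ninaC at 0.58 on the log2 scale (adjusted p = 0.0193), in the rdgA probe set 1641349_at at 0.60 (adjusted p = 0.02), in laza at -0.35 (adjusted p = 0.0226), in eys at 0.59 (adjusted p = 0.0308) and in per at 1.13 (adjusted p = 0.000198). For ninaC, rdgA, eys and per, all 5 arrays of the 2nd exposure lay above all 5 of the 1st, and for laza all 5 lay below. Over all tested probe sets 3.39% were higher without overlap in this comparison, and the share that was lower was not counted. These genes were picked by calls of the same contrast, so their separation adds no evidence.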

How the results depend on the processing

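The count of members called after the 1st exposure against control was 0 in every alternative and in every fit without 1 array. After the 2nd exposure against control it was 1 with eBayes trend, 1 with arrayWeights and 2 without replicate 5 of all treatments, and 0 to 2 in the fits without 1 array. For the 2nd against the 1st exposure it was 2 with eBayes trend, 2 with arrayWeights, 2 when 2 treatments were fitted at a time, 2 with the main residual component as a covariate, 0 without 2nd exposure replicates 4 and 5, and 1 to 2 in the fits without 1 array. In each case the calls were of trpl or ninaC. The residuals of like-numbered arrays had correlations of -0.073 to 0.098, and 3 of 15 arrays were closest to one of their own number, which does not show whether the numbers pair the samples. With the replicate number as a block, 0 members were called after either exposure against control and 0 for the 2nd against the 1st exposure, where ninaC had a limma adjusted p of 0.0525. The cause of these changes was not tested.

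Over all tested probe sets the calls were 50 (8 to 96 over the alternatives) after the 1st and 501 (254 to 980) after the 2nd exposure against control, and 243 (80 to 537) between the exposures. Signs turned for fold changes near 0. With array medians equalised the log2 fold change was 0.0072 for trpl after the 1st exposure, -0.011 for Arr1 and -0.031 for Arr2 after the 2nd exposure against control, and -0.013 for inaD, -0.0036 for Arr1 and -0.013 for Arr2 between the exposures. Without replicate 5 of all treatments it was 0.051 for trpl after the 1st exposure and 0.11 for trp after the 2nd. Arr2 after the 2nd exposure against control stood at -12.0 Signal on the linear scale, -0.037 without 2nd exposure replicates 4 and 5 and -0.011 with the closest arrays averaged. Without 1 array, trpl after the 1st exposure ran over -0.10 to 0.045, trp after the 2nd over -0.18 to 0.056, Arr2 after the 2nd over -0.028 to 0.084, and the inaE probe set after the 1st over -0.077 to 0.11. Signal over background limits dim probe sets most, and 22.3% to 27.2% of probe sets per array were under a Signal of 20, but no member was.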
